A study of Mus musculus with 14 samples.

Results

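A protein-coding gene can be transcribed from more than 1 promoter. Sites of acetylated lysine 27 of histone H3 (H3K27ac) were examined here at promoters that lie inside such genes. The members were chosen from a list of 122228 H3K27ac sites, of which 122171 lay on chromosomes 1 to 19 and X. A site was a member if its middle was within 500 bp of the transcription start site (TSS) of a protein-coding transcript. That TSS had to lie over 5 kb downstream of the 5' end of its own gene, and over 3 kb from the 5' end of every annotated gene. This gave 1286 sites, 1.05% of those on these chromosomes, at 1831 TSSs of 968 genes. TSSs that met both distance conditions are called internal TSSs below, with or without a site, and the annotated 5' end of the gene is called the outer end. A TSS or an outer end had a site if the middle of a site was within 500 bp of it. With windows of 250 and 1000 bp in place of 500 bp there were 726 and 1975 members, and 10.9% and 26.3% of internal TSSs had a site in place of the 19.7% given below.

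The cells were immortalised mouse embryo fibroblasts (iMEF) of clone NG3, in which exon 4 of the endogenous Ash2l genes was deleted and a lentiviral construct supplied human ASH2L with an N-terminal FKBP tag. Control cells carried both changes as well. ASH2L is a core part of KMT2 complexes, the methyltransferases for lysine 4 on histone H3, and treatment with the small molecule dTAG leads to its degradation through the tag. The 14 libraries comprised 2 H3K27ac libraries for each of 6 groups, namely control cells and cells after 30 min, 2 h, 4 h, 8 h or 16 h of dTAG. The input was sequenced in 1 library of control cells and 1 of cells treated for 16 h.

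Because replicates were merged before peaks were called and all samples were then joined, the list holds positions without a signal, a read count or a sample label. The list therefore gives no read depth for a site and no replicate error, and it does not separate the time points. Changes over time were not analysed here. Intervals in parentheses are 95% Wilson intervals for shares and order-statistic intervals for medians. They cover counting error only, because neighbouring TSSs of a gene and neighbouring sites are not independent. Of the marker genes of fibroblasts, 6 of 10 had a site within 500 bp of the outer end, among them Col1a2, Col3a1, Vim and Twist1, whereas Col1a1, Pdgfra, Pdgfrb and Prrx1 did not. By the same measure 40.3% of the outer ends of all protein-coding genes had a site. Counts this small do not by themselves identify the cells. None of the 5 epithelial, 3 endothelial and 3 neural markers had one, and of 3 haematopoietic markers Cd68 did.

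H3K27ac is placed by the acetyltransferases CBP and p300 and is found at active promoters and enhancers. An internal promoter gives a transcript with its own leading exon. Where the start codon lies upstream of that exon, the protein made from the internal promoter lacks the N-terminal part, and where the start codon lies downstream, both promoters encode the same protein. Gene bodies also contain enhancers, so a site at an internal TSS can mark either kind of element. Many mammalian promoters lie in CpG islands (CGIs), which are stretches rich in the dinucleotide CpG.

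The promoter sequences of 8 members are given to show the 2 kinds of internal promoter described below. Each is the 150 bp just upstream of the internal TSS in GRCm38 (mm10), outside every annotated exon, and reads 5' to 3' along the gene. Capitals mark matches to the motifs named further down. The sequences of Ash2l, Plec, Schip1 and Zfhx3 come from internal TSSs with a CGI.
Ash2l, chr8:25840788-25840937, minus strand: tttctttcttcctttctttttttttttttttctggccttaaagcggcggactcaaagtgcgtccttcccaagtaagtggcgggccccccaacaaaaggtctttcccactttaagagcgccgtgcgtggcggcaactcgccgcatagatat
Plec, chr15:76198210-76198359, minus strand: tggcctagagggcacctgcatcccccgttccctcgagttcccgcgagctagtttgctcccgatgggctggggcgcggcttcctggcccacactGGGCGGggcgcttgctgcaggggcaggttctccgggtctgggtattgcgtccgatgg
Schip1, chr3:68494058-68494207, plus strand: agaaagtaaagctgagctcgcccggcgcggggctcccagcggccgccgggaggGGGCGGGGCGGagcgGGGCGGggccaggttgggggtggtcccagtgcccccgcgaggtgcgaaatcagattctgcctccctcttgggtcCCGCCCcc
Zfhx3, chr8:108714494-108714643, plus strand: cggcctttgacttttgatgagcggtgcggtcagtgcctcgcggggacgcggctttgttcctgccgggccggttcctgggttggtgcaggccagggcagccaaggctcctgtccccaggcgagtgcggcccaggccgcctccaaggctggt

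The sequences of Glis2, Dab2ip, Arid5b and Hdac9 come from internal TSSs without a CGI.
Glis2, chr16:4601013-4601162, plus strand: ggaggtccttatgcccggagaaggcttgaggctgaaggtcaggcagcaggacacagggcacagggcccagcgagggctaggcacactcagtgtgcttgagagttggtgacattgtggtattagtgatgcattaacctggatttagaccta
Dab2ip, chr2:35691844-35691993, plus strand: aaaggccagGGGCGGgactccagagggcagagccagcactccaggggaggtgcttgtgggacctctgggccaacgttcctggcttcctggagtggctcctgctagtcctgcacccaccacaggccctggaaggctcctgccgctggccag
Arid5b, chr10:68136627-68136776, minus strand: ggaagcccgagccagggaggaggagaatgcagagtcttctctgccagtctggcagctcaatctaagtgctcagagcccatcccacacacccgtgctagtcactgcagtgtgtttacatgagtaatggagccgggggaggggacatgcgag
Hdac9, chr12:34528875-34529024, minus strand: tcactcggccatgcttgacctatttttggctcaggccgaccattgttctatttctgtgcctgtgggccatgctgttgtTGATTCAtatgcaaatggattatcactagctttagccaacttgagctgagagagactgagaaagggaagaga

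The first 4 sequences held between 10 and 15 CpG dinucleotides each, and the other 4 held between 2 and 4. This separation belongs to the 8 sequences shown, which were picked to show both kinds, and CGIs are called by CpG density. The same stretches of Chd8 and Dnmt3a, also without a CGI, held 10 and 9, whereas those of Cbx5 and Kat2b held 4 and 2. GC content overlapped between the sets, with 49.3% in Ash2l, which was the lowest of the 4 with a CGI, and 67.3% in Dab2ip, which was the highest of those without.

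To ask how often an internal TSS carried H3K27ac, the 1831 TSSs with a site were set against all internal TSSs that met the distance conditions. There were 9282 of these in 4740 genes, and 19.7% had a site (18.9 to 20.5). For comparison, 6.04% of all bases in the same gene bodies, counted under the same distance conditions over 458 Mb, were within 500 bp of the middle of a site. The share at internal TSSs was thus 3.26 times the share of bases. It was lower than at the outer ends of all 21755 protein-coding genes, of which 40.3% had a site (39.7 to 41.0). On the 19 autosomes the share of internal TSSs with a site was on average 20.3% ± 3.83 (SD), from 15.2% on chromosome 12 to 29.0% on chromosome 13.

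Internal TSSs with and without a CGI differed in how often they had a site. A CGI lay within 500 bp of 1507 internal TSSs, 16.2% of all, whereas 53.6% of outer ends had one. Of the internal TSSs with a CGI 56.5% had a site (54.0 to 59.0), and of the 7775 without a CGI 12.6% did (11.9 to 13.3). Outer ends gave similar values, 64.1% with a CGI (63.2 to 65.0) and 12.9% without (12.2 to 13.5). Without a CGI the intervals of internal TSSs and outer ends overlapped, and with a CGI the internal TSSs remained below the outer ends. This order holds for a site middle within 500 bp. Counted as lying inside a site, internal TSSs with a CGI had 62.0%, and all outer ends 36.5% in place of 40.3%. Outer ends were not split by CGI on that measure, so the order there is not known.

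The share also differed with the annotation of the TSS. For 2912 internal TSSs, every transcript was tagged in GENCODE as having an incomplete start, meaning that its 5' end was not established. A share of 6.70% of these had a site (5.84 to 7.66), against 25.7% of the 6370 with a complete start (24.6 to 26.8). Among incomplete starts without a CGI the share was 5.97% (5.15 to 6.91), which was 0.988 times the share of gene body bases. Complete starts without a CGI reached 16.3% (15.3 to 17.4). A separate annotation gave the same order. Of internal TSSs with a curated RefSeq start within 100 bp on the same strand 31.2% had a site (29.6 to 32.9), and of the others 14.2% (13.4 to 15.1). Without a CGI these values were 17% (15.5 to 18.7) and 11.0% (10.2 to 11.8).

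**Figure D1:**
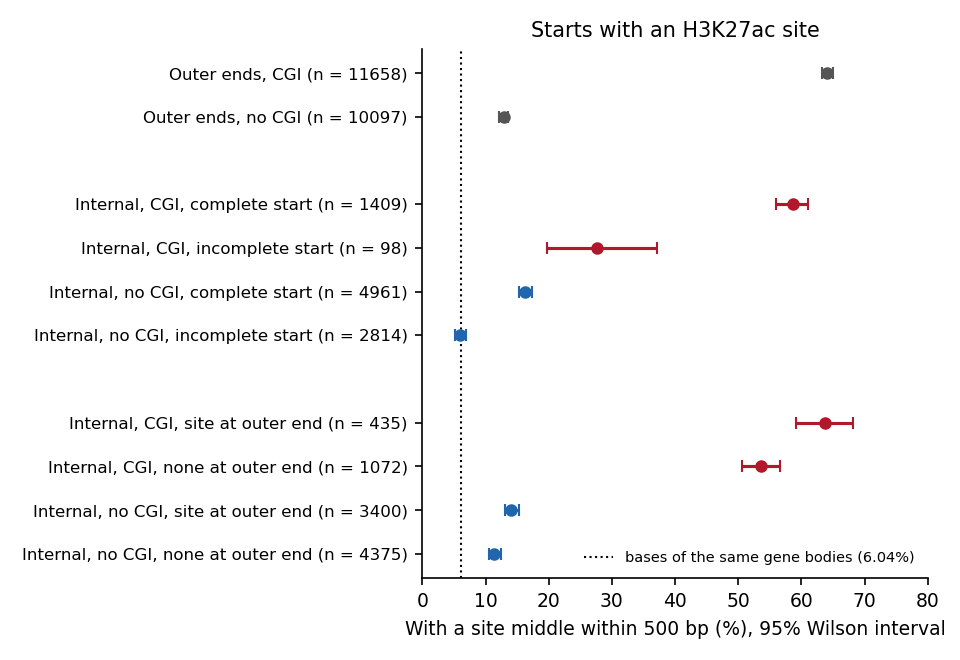
Share of starts with an H3K27ac site middle within 500 bp, in percent on the horizontal axis, for outer ends and for internal TSSs split by CGI, by completeness of the annotated start and by a site at the outer end. Points are shares, bars are 95% Wilson intervals, and the dotted line is the share of gene body bases (6.04%), on which the 2814 incomplete starts without a CGI fall (5.97%).

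The position of sites around internal TSSs was then examined by counting, at every 100 bp, how many TSSs had a site there. At internal TSSs with a CGI the coverage was highest 200 bp downstream, with 71.5% of TSSs covered, and was 62.0% at the TSS itself. It fell to 9.22% at 5 kb upstream and 10.9% at 5 kb downstream. Outer ends had the same form, with a maximum of 47.9% at 200 bp downstream and 36.5% at the start. These were all outer ends, of which 53.6% had a CGI, so their height cannot be set against that of internal TSSs with a CGI. Complete starts without a CGI had a lower maximum of 16.9% at 100 bp downstream over a flank of 9.05% and 5.89% at 5 kb. At incomplete starts without a CGI the coverage was 3.38% at 300 bp upstream, 4.51% at the TSS, 4.73% at 100 bp downstream and 3.27% at 500 bp downstream. The highest value of this class was 6.61%, at the upstream edge of the 5 kb span.

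**Figure D2:**
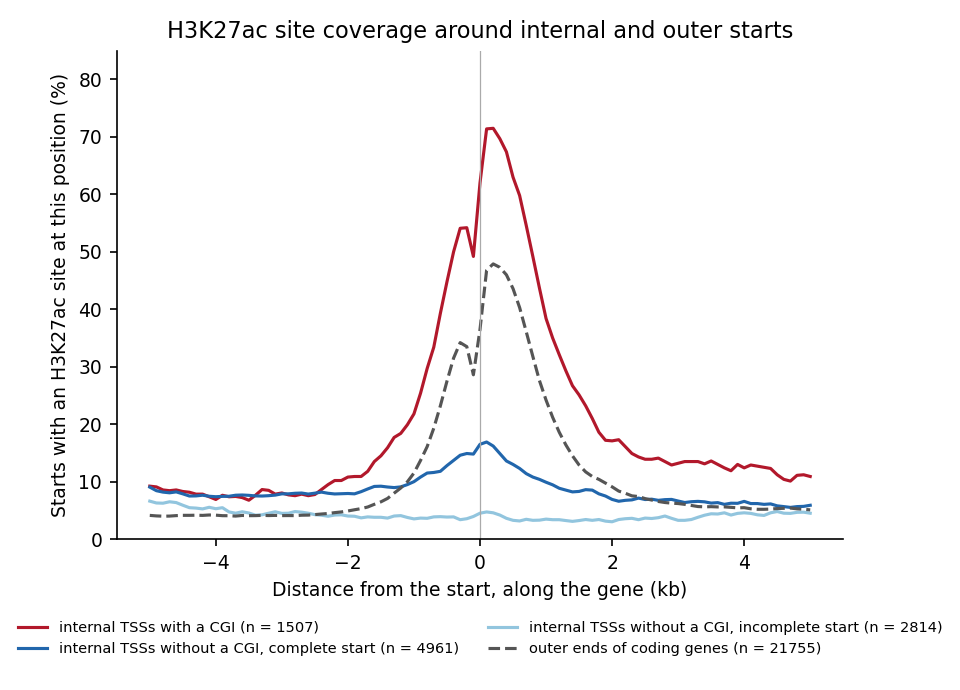
Percentage of starts covered by an H3K27ac site (vertical axis) against distance from the start in kb, with downstream to the right, for 3 classes of internal TSS and for outer ends of protein-coding genes. Internal TSSs with a CGI peak at 71.5% and outer ends, with and without a CGI together, at 47.9%, both 200 bp downstream. Incomplete starts without a CGI have at most 6.61%.

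Of the 1286 members, 878 lay over their TSS (68.3%), 242 lay wholly upstream and 166 wholly downstream. Median widths were 960 bp over the TSS, 313 bp upstream and 358 bp downstream. This order follows from the rule, because a site with its middle within 500 bp can miss the TSS only if it is under 1000 bp wide. Where the site missed the TSS, another site was counted on the other side within 1 kb in 204 of 408 cases. This count includes TSSs that lay inside the other site, as at the Utrn TSS 55.8 kb from the outer end. It therefore does not give the number of TSSs in a gap between sites. The middle was downstream of the TSS in 63.3% of the members that covered it (60.1 to 66.4). A neighbouring site with its middle within 2 kb was found for 829 members (64.5%). The nearest internal TSS was inside an intron of a transcript starting upstream for 752 members and inside an exon of one for 534. By annotation, TSSs in introns had a site in 24.6% (23.3 to 26.1) and those in exons in 16.5% (15.6 to 17.5). These shares were not split by CGI or by completeness of the start, and the part of either in the difference was not tested.

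How the annotated proteins related to the internal promoter was read from the start codons. The outer transcripts were coding transcripts that began less than 5 kb from the outer end. For 453 members the start codon of the internal transcript was downstream of theirs, for 440 it was one they shared, and for 75 it was upstream. In 128 members the gene had no complete coding transcript at the outer end, and for 190 members the internal start was incomplete. TSSs of genes without a coding outer transcript had a site in 38.3% (34.4 to 42.3), those with an upstream start codon in 36.6% (31.4 to 42.1), those with a downstream start codon in 25.9% (24.2 to 27.7) and those with a shared one in 21.9% (20.5 to 23.4). The point of reference was the annotated outer end, which can be that of a non-coding or rarely used transcript.

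Members were wider than most sites. Their median width was 666 bp (622 to 715) with quartiles of 347 and 1229 bp. All sites had a median of 401 bp, and the 29346 other sites in the same gene bodies had one of 373 bp (370 to 376). The median of members exceeded that of all sites on 20 of 20 chromosomes, by a ratio of 1.15 to 2.41. The 9216 sites at outer ends had a median of 750 bp (735 to 762), 1.12 times that of members, and the intervals did not overlap. By chromosome the mean log2 ratio was 0.20 ± 0.25 (SD), and it was above 0 on 16 of 20. Of the members 31 measured 200 bp, the narrowest width in the list, and 149 were over 2000 bp, that is 11.6% (9.95 to 13.5) against 7.70% of sites at outer ends and 4.33% of all sites. Where sites less than 1 kb apart were merged, the median width of members was 1210 bp and the ratio of outer to internal sites was 1.16. The ratio depended on the settings. It was 1.01 without incomplete starts and also 1.01 without the narrowest 25% of all sites, so the difference was then nearly absent. With windows of 250 and 1000 bp it was 1.45 and 1.38.

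Width went with the CGI. Median widths were 900 bp (855 to 985) for the 492 members with a CGI and 508 bp (452 to 560) for the 794 without. This ratio of 1.77 was larger than the ratio of 1.30 between sites at outer ends with and without a CGI, whose medians were 776 and 595 bp. Members with a CGI were thus wider than sites at outer ends with a CGI, and members without one were narrower than sites at outer ends without one. Members at incomplete starts were narrow, with a median of 392 bp (359 to 417) that was close to that of other sites in gene bodies. Members of genes with and without a site at the outer end had medians of 621 bp (552 to 682) and 714 bp (643 to 767). Within each CGI class the difference was smaller and the intervals overlapped. The medians were 888 bp (813 to 1024) and 912 bp (844 to 1014) with a CGI. They were 487 bp (416 to 562) and 527 bp (458 to 591) without.

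**Figure D3:**
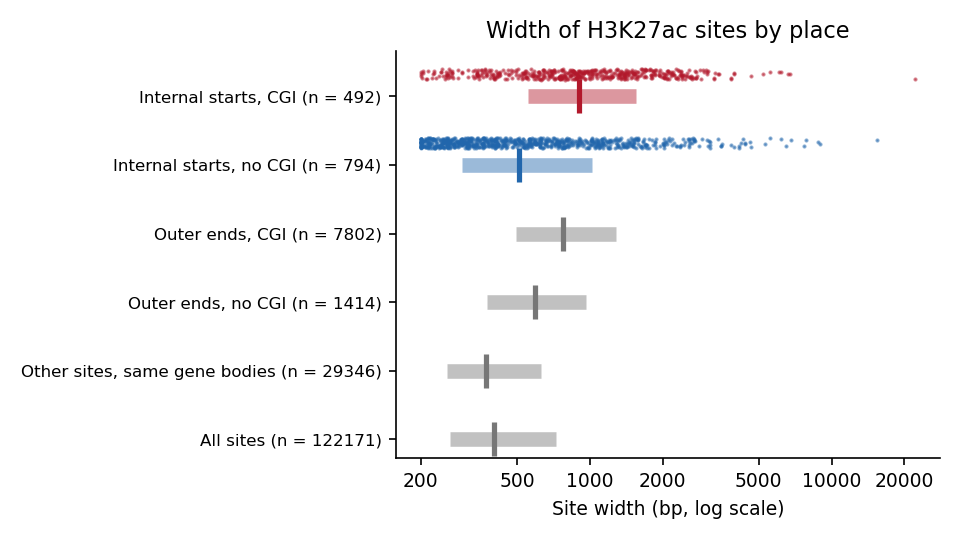
Width of H3K27ac sites in bp (log scale) for all sites, other sites of the same gene bodies, sites at outer ends and members at internal starts, the last 2 split by CGI. Ticks are medians, bars run between quartiles, and dots are single members; members with a CGI have the largest median (900 bp) and other gene body sites the smallest (373 bp).

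The widest member measured 22157 bp (chr15:76186980-76209136) and lay in Plec, which encodes plectin, a linker of intermediate filaments to other parts of the cytoskeleton. It contained 10 coding TSSs, and the internal TSS nearest to its middle, of Plec-204, was 34.4 kb downstream of the outer end. The outer end of Plec had its own site of 1395 bp. The second widest, 15425 bp at chr16:4593022-4608446 in the gene of the zinc finger protein Glis2, also covered the outer end of the gene 6.45 kb upstream of its TSS. It was the single member to do so, and Glis2 counted as without an outer site because the middle of that site was distant from the outer end.

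The remaining 8 of the 10 widest members measured between 6501 and 8965 bp. Dab2ip, coding for a GTPase-activating protein of Ras, had a site of 8965 bp (chr2:35687501-35696465) 134 kb inside the gene, whereas the outer end had one of 476 bp. Nfe2l1, a transcription factor of proteasome genes, had 8778 bp with 5 coding TSSs inside. It counted as without a site at the outer end, although this end lay inside a site and the nearest site middle was 518 bp away. In Synpo, which encodes an actin-associated protein, the values were 7871 bp inside and 352 bp at the outer end. Tnk2, a non-receptor tyrosine kinase, had 6778 bp inside. The site with its middle within 500 bp of its outer end measured 200 bp, but that end lay inside another site with a more distant middle. Hoxa10, a homeobox gene, had 6713 bp and 2603 bp. Nfix, Zfhx3 and Lasp1 had 7711, 6625 and 6501 bp inside and no site middle within 500 bp of the outer end. The outer ends of Nfix and Lasp1 nevertheless lay inside a site, with the nearest site middles 1277 and 614 bp away, whereas that of Zfhx3 did not, with the nearest middle 52.0 kb away. Of these 10 members 3, in Plec, Hoxa10 and Zfhx3, had a CGI at the internal TSS.

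Whether the outer end of a gene had a site was recorded for all 968 genes with a member. The middle of a site was within 500 bp of the outer end in 441 (45.6%, 42.4 to 48.7) and not in 527. Of these 527 outer ends, 122 lay inside a site with a more distant middle, so that 58.2% of the genes had a site by either measure. With a limit of 1 kb in place of 500 bp, 59.4% had one. Of the 3772 genes with internal TSSs but no member, 42.7% had a site at the outer end (41.2 to 44.3), and the intervals overlapped. Counted the other way, 20.4% of the 4740 genes with an internal TSS had a member. This was 21.5% of those with a site at the outer end (19.8 to 23.3) and 19.6% of those without (18.2 to 21.2). By TSS, the share with a site was higher within each CGI class where the outer end had one. The outer end is a property of the gene, however, and TSSs of a gene are not independent. A CGI was near 435 internal TSSs of genes with a site at the outer end and 1072 of genes without. Internal TSSs without a CGI numbered 3400 and 4375. The classes thus had different weights in these sets of genes, and a share over both classes was not computed. With a CGI, 63.7% of internal TSSs had a site if the outer end had one (59.1 to 68.1) and 53.6% if not (50.6 to 56.6). Without a CGI the values were 14.1% (13.0 to 15.3) and 11.4% (10.5 to 12.4).

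The outer ends of genes with a member differed by CGI. A CGI was found at 81.4% of the 441 outer ends with a site (77.5 to 84.8) and at 41.0% of the 527 without (36.9 to 45.2). In 231 genes the member had a CGI and the outer end did not, and 18.2% of these outer ends had a site (13.7 to 23.7). In the 184 genes with a CGI at both, 62.5% had one (55.3 to 69.2), which was close to the 62.4% of the 391 genes with a CGI at the outer end alone. In the 161 genes with neither it was 24.8% (18.8 to 32.1).

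Among genes with no site middle within 1 kb of the outer end, the widest member was that of Glis2, which itself covered the outer end. The next 9 ranged from 4313 to 7711 bp. Apart from Glis2, Nfix and Zfhx3 they lay in Lmna (6183 bp), Hdac7 (6048 bp), Csf1 (5571 bp), Mecom (5552 bp), Schip1 (5215 bp), Speg (4399 bp) and Arid5b (4313 bp). Lmna encodes the nuclear lamins A and C, Hdac7 a histone deacetylase and Csf1 the macrophage colony-stimulating factor. In Lmna, Hdac7, Mecom, Schip1 and Zfhx3 the CGI was at the internal TSS and not at the outer end. In Glis2, Nfix, Csf1 and Speg it was at the outer end and not at the internal TSS. Arid5b had none at either place. The outer ends of Nfix, Lmna, Csf1 and Arid5b lay inside another site, and those of Zfhx3, Hdac7, Mecom, Schip1 and Speg did not. The TSS of the Csf1 member, of Csf1-207, was an incomplete start.

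In the 441 genes with sites at both places the widest internal site was wider than the widest site at the outer end in 187 (42.4%, 37.9 to 47.1). An outer site counted here only if its middle was within 500 bp of the outer end. A wider site that covered this end from a more distant middle was left out, as in Tnk2 and Chd8. The internal value was the largest over all members of the gene. The count of genes with a wider internal site differed with the CGI, with 97 of 157 genes with a CGI at any member (61.8%, 54.0 to 69.0) and 90 of 284 without (31.7%, 26.6 to 37.3). The median widths inside and at the outer end were 1104 and 897 bp in the former, and 568 and 952 bp in the latter. The member with the CGI was not always the widest. Dab2ip, for example, was classed with a CGI, but its member of 8965 bp had none. The number of members per gene was not taken into account. By this measure the largest ratio was that of Tnk2, whose internal site was 33.9 times as wide as the outer one. The outer end of Tnk2 also lay inside a further site, which this ratio left out. At the other extreme was Mef2a, a transcription factor of muscle and other cells, with 204 bp inside and 2674 bp at the outer end.

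**Figure D4:**
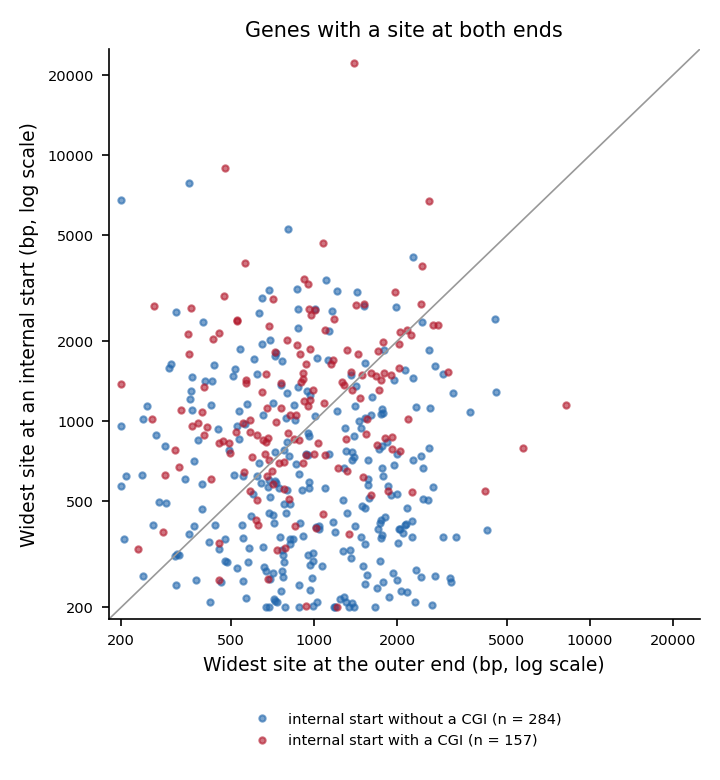
Widest H3K27ac site at an internal start against the widest site at the outer end, both in bp on log scales, for the 441 genes with sites at both. Each dot is a gene, coloured by a CGI at any of its members, not always the widest, and the line marks equal width. Above it lie 97 of 157 genes with a CGI and 90 of 284 without. Outer sites are those with a middle within 500 bp of the outer end.

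Members were spread over many genes. With each site assigned to the gene of its nearest TSS, 731 of 967 genes had 1 member, 175 had 2 and 61 had 3 or more. The internal TSSs fell into 7311 clusters, in which TSSs of a gene followed each other within 500 bp, and 1183 clusters had a site (16.2%). Of 532 genes with several clusters and at least 1 site, 469 had both clusters with and clusters without a site (88.2%, 85.1 to 90.6).

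Tcf4, which encodes a basic helix-loop-helix factor, had the most members, with 7 sites of 495 to 1720 bp at distances of 5.17 to 256 kb from the outer end. Sites were found at 17 of its 28 internal TSSs, and none of the 7 members had a CGI. Foxp1, a forkhead factor, had 6 members of 214 to 2703 bp at 87.4 to 495 kb, with sites at 9 of 12 internal TSSs. Of these members 1 had a CGI. Utrn, coding for the dystrophin-related protein utrophin, had 5 members, all of 742 bp or less, at 42.4 to 320 kb. The middle of the nearest site was 830 bp from the outer end in Tcf4, 908 bp in Foxp1 and 1187 bp in Utrn, so all 3 counted as without a site there. The outer ends of Foxp1 and Utrn lay inside those sites.

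A further 13 genes had 4 members each, and the 5 of them with the largest summed width are described. Sept9 encodes a septin, and its members measured 200 to 2462 bp. Nearest to its outer end, a site was 24558 bp away. Celf2, an RNA-binding protein, had members of 240 to 1028 bp at 428 to 788 kb, and the site nearest to its outer end was 8351 bp away. Rreb1, a zinc finger transcription factor, had members of 401 to 2752 bp, 3 of them with a CGI, and a site at the outer end. Pde4d, a phosphodiesterase of cyclic AMP, had members of 256 to 1081 bp at 667 to 1183 kb and sites at 4 of 11 internal TSSs. In 2010111I01Rik the TSS nearest to the middle was an incomplete start for all 4 members, the widest having 2144 bp and a CGI. The member of 1200 bp also contained complete starts.

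**Figure D5:**
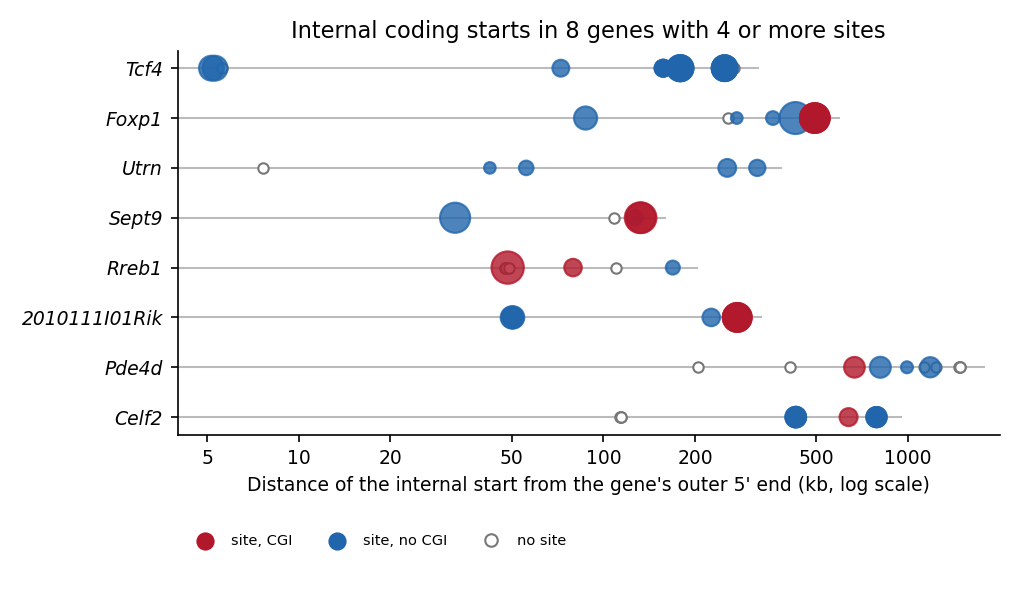
Internal coding TSSs of the 3 genes with 5 or more members and of 5 of the 13 genes with 4, chosen by summed width, placed by distance from the outer end of the gene in kb (log scale). Filled circles are TSSs with a site, with area growing with the width of the site, and open circles are TSSs without one; in Tcf4 17 of 28 TSSs have a site, and in Pde4d 4 of 11.

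The share of internal TSSs with a site varied little with distance from the outer end. It was 19.5% at 5 to 10 kb (17.8 to 21.3), 20.8% at 20 to 50 kb (19.2 to 22.5) and 20.5% beyond 200 kb (17.8 to 23.5). Behind this were opposite trends, as CGIs became rarer, from 19.9% of TSSs at 5 to 10 kb to 9.86% beyond 200 kb. At the same time the share of TSSs without a CGI that had a site went from 9.80% (8.43 to 11.4) to 17.8% (15.1 to 20.8). With a CGI the share was 58.4% at 5 to 10 kb (53.5 to 63.2) and 45.3% beyond 200 kb (34.6 to 56.6). With 1 member taken per gene, those farthest from the outer end were at 2857 kb in Fgfr2, a fibroblast growth factor receptor, with 545 bp, and at 2100 kb in Dmd, which encodes dystrophin, with 341 bp. Pde4d (1183 kb, 995 bp), Lrrc4c (1149 kb, 1559 bp), Nrxn3 (1090 kb, 359 bp) and Etl4 (828 kb, 416 bp) followed. Another member of Pde4d was at 992 kb, with 256 bp. All these distances run from the annotated outer end. For the Fgfr2 member the start codon lay upstream of those of the transcripts that began less than 5 kb from that end.

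Gene lists were used to describe which functions the members touched. A gene on a list counted if it had an internal TSS, and the background over all 4740 such genes was 20.4%. Among genes known for alternative promoters 33 of 52 had a member, and among genes of the actin cytoskeleton and adhesion 27 of 53. Transcription factors had 31 of 79, kinases and growth factor receptors 24 of 60, and cyclic nucleotide phosphodiesterases 6 of 15. The KMT2 complexes and chromatin regulators had 17 of 53 and the extracellular matrix 12 of 40. Genes on these lists had more internal TSSs than the average of 1.96, up to 6.04 per gene for known alternative promoters, except for the extracellular matrix with 1.60. Counted per TSS, against 19.7% over all internal TSSs, the shares were 22.6% for chromatin regulators (17.1 to 29.3), 24.1% for phosphodiesterases (14.6 to 36.9) and 29.7% for the extracellular matrix (19.9 to 41.8). They were 30.5% for kinases (23.8 to 38.2), 31.2% for actin and adhesion (26.0 to 37.0), 32.8% for transcription factors (27.4 to 38.8) and 36.6% for known alternative promoters (31.5 to 42.1). The lists were chosen with results of these data known, and no test was made of them.

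The genes known for alternative promoters had 61 members with a median width of 1036 bp. After Plec and Nfix the widest were in Abl1, a tyrosine kinase, with 4625 bp at 71.8 kb, and in Gnas, the imprinted gene of the G protein alpha subunit, with 3378 bp at 45.7 kb. Neither gene had a site middle within 500 bp of the outer end, although that of Abl1 was inside a site with its middle 746 bp away. Nr3c1, the glucocorticoid receptor, had 3257 bp at 28.7 kb with a start codon shared with the outer transcripts. Bdnf had 2964 bp at 18.9 kb and a site at the outer end. In Cdkn2a, whose separate promoters give the inhibitors p19Arf and p16Ink4a, the member of 1502 bp was 12.5 kb downstream of an outer end that also had a site. The tropomyosin genes Tpm1 and Tpm3 had members of 1401 bp at 5.70 kb and of 2036 and 470 bp at 7.79 and 6.89 kb.

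Of the 52 members in genes of the actin cytoskeleton and adhesion, 12 had a CGI. The widest after Plec were in Synpo, with sites of 7871 and 4390 bp, and in Cald1, which encodes the actin-binding protein caldesmon, with 4152 bp at 111 kb. The kinases Ptk2, the focal adhesion kinase, Cdk14 and Akt2 had 3128, 2193 and 1579 bp, each with a site at the outer end. The 14 members in phosphodiesterase genes had a median of 405 bp. The widest were 2754 bp in Pde10a, 1121 bp in Pde4b and 1081, 1044 and 995 bp in Pde4d. The 14 members in genes of the extracellular matrix had a median of 501 bp, and 1 of them had a CGI. Ltbp1, a binding protein of latent TGF-beta, had the widest with 2685 bp at 173 kb, and Tnc, which encodes tenascin C, had 608 bp at 26.3 kb.

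Among the KMT2 complexes and chromatin regulators 22 members were found, with a median of 716 bp. Ash2l itself was one of the genes. Its member of 1756 bp (chr8:25840074-25841829) covered 4 coding TSSs at a CGI 6.91 kb downstream of the annotated outer end, which had neither a site nor a CGI. Dpy30, which codes for a partner of ASH2L in these complexes, had the same arrangement, with a member of 1222 bp (chr17:74315748-74316969) over 5 coding TSSs 7.55 kb downstream of an outer end without a site. The widest members of the list were in Hdac7 (6048 bp), Phf21a (3826 bp), the acetyltransferase gene Kat6b (2081 bp) and Smarca2, an ATPase of SWI/SNF complexes (2021 bp). Smarca2 had a site at the outer end and the other 3 did not.

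The sequence around internal TSSs with a site was compared with the other TSSs for 9 short motifs, searched on both strands from 250 bp before to 50 bp after the TSS. The TATA box was searched as TATAAA and the GC box, the binding site of SP1, as GGGCGG. For the CCAAT box these 5 letters themselves were used, whereas the AP-1 site, bound by FOS and JUN proteins, was searched as TGANTCA. Factors of the ETS family bind CCGGAA, and the E-box of MYC and related factors is CACGTG. For the TEAD factors of the Hippo pathway the letters GGAATG were used. Those for the cyclic AMP response element (CRE) were TGACGTCA. Finally, the core of the site of the factor NRF1 was searched as GCATGCGC. None of these strings contains another. Among outer ends of all protein-coding genes the GC box was found in 43.4%, the CCAAT box in 38.9%, the ETS site in 17.6%, the TEAD site in 13.6%, the TATA box in 12.7%, the E-box in 7.81%, the AP-1 site in 6.88%, the NRF1 core in 3.40% and the CRE in 2.45%.

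At internal TSSs with a site and a CGI the GC box was present in 75.8% (72.8 to 78.6), the ETS site in 23.4% (20.6 to 26.3) and the NRF1 core in 5.75% (4.38 to 7.52). Internal TSSs with a CGI but without a site had them in 62.6% (58.8 to 66.2), 14.5% (12 to 17.4) and 2.44% (1.51 to 3.93). Without a CGI the AP-1 site was found at 14.6% of TSSs with a site (12.5 to 17) and at 8.62% of those without (7.98 to 9.31). The GC box was at 17.8% (15.5 to 20.3) and 8.33% (7.69 to 9.01). The TATA box was less frequent with a site, 11.1% (9.31 to 13.3) against 17.6% (16.7 to 18.5). For the CCAAT box, the E-box and the TEAD site the intervals with and without a site overlapped, both with and without a CGI. The CRE was found in 3.40% and 1.22% with a CGI and in 1.74% and 0.647% without. Base composition moved with these values. In the 250 bp on either side of the TSS the median GC content was 55.0% for members and 48.3% for internal TSSs without a site, and its part in the motif shares was not tested.

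The members and sites closest to each limit of the rule had the following values. The members whose middles were farthest from the TSS were at 500 bp in Tdrd7 (849 bp wide) and Nupr1 (2645 bp) and at 499 bp in Srgap1 (1089 bp). Just outside were sites at 501 bp in Ppp2r5e (297 bp) and Plcb3 (585 bp) and at 501.5 bp in Arhgap24 (424 bp). The TSSs nearest to the limit of 5 kb were at 5002 bp in Ift46 (767 bp wide), 5030 bp in Pmvk (639 bp) and 5032 bp in Prss46 (309 bp), and just outside were Pef1 at 4998 bp (1297 bp), Park7 at 4954 bp (809 bp) and Ptov1 at 4953 bp (417 bp). For the limit of 3 kb they were Mia2 at 3050 bp (1676 bp), Sgca at 3083 bp (257 bp) and Acin1 at 3105 bp (1852 bp), and just outside Agpat3 at 2921 bp (558 bp), Gcnt2 at 2899 bp (200 bp) and 2900026A02Rik at 2883 bp (1158 bp).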

How the data were processed

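H3K27ac ChIP-seq was carried out in iMEF cells, 14 libraries in 8 groups. Per its methods, the authors used Trim Galore for trimming, BWA for alignment to mm10 and Samtools for filtering after ENCODE, combined the replicates by Picard, and used MACS in its narrow mode for peaks. The peak threshold and how peaks of different samples were joined are not given in the sources used here. If overlapping peaks were merged, a width can exceed that in any single sample. The deposited list holds positions in base pairs (chromosome, start, end) for 122228 sites, of which 57 off chromosomes 1 to 19 and X were left out. The list gives no read depth, and values per sample were not analysed here.

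Starts were read as counted from 0 and are printed counted from 1. Genes were from GENCODE M21 on GRCm38.p6, an earlier release than the one of the authors, and curated starts were from RefSeq (37786). CGIs (16964) were called on the repeat-masked sequence as runs scored 17 per CpG and -1 otherwise, of at least 200 bp, 50% GC and an observed to expected ratio of 0.6. Named genes were the 10 widest members, the 8 genes with most members (ties by summed width), the 6 farthest members (1 per gene), the 10 widest with no site middle within 1 kb of the outer end, the widest on each list, and the 3 sites next to each limit. Sequences were chosen from the widest members, those without an outer site and the chromatin regulators (Ash2l and Hdac9), to show both kinds of promoter. One gene list is not reported here. The members and lists were chosen with earlier results of these data known. No test was made, since the single list has no replicates. The counting steps were checked on simulated positions. Python 3 with numpy, pandas, scipy and numba was used.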

Additional observations from a re-analysis of the deposited data

How the results depend on the processing

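No paired analysis was possible because no value per sample or replicate was analysed here. Of 59 alternatives tried over 6 results, 36 were counted as unchanged. For shares and median widths this meant staying within the interval, and for the number of sites within 1.5 times the value reported. For the width ratio, which has no interval, it meant a log2 change within the SD of the log2 ratio by chromosome (0.25). Windows of 250 and 1000 bp gave 726 and 1975 sites, 10.9% and 26.3% of internal TSSs with a site, 35.1% and 33.3% of sites with a CGI, and width ratios of outer to internal sites of 1.45 and 1.38, and 1000 bp gave a median width of 595 bp. Any overlap with the window gave 26.6% of TSSs and a median of 778 bp. Without incomplete starts these were 25.7% and 739 bp, with 43.3% of sites at a CGI, and without the narrowest 25% of sites 18%, 780 bp and 41.9%. With only protein-coding genes barring a TSS, 20.6% of TSSs had a site. Beyond 10 kb 35.4% of sites had a CGI, and with islands of at least 500 bp 25.6% did. Merging sites less than 1 kb apart gave a median of 1210 bp. Genes with a site at the outer end were 59.4% for a middle within 1 kb and 54.4% for any TSS less than 5 kb downstream. The width ratio was 1.01 without incomplete starts and without the narrowest sites. The cause of these changes was not tested, beyond what each alternative changes by construction. The list gives no depth, which limits what an absent site can mean: a TSS without a site may carry signal under the peak threshold.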
